A study of Homo sapiens with 9 samples.

Results

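The 35 genes described here encode proteins of homologous recombination and of the Fanconi anaemia pathway. They were taken by symbol from a written list of DNA repair genes and are 35 of the 59453 gene names in the count table. The rule uses no measured value, but the list was chosen with earlier results of these data known. The genes were measured by RNA-Seq in MDA-MB-231, an established human line of triple-negative breast cancer. The 3 groups of 3 libraries were untreated cells, cells given the copper chelator TEPA for 8 h, and cells given it for 24 h. The sample labels give 8 mM TEPA for both times, whereas the RNA sequencing methods give 4 mM. The study's general treatment methods name both 4 and 8 mM for this line, so the dose is uncertain. The study's text expands TEPA to a pentamine, whereas its methods list a tetramine salt as the reagent, so the exact chelator is uncertain. All groups grew in the same medium with serum, and a single untreated group served both times. No source says when the untreated cells were harvested, so TEPA and time in culture cannot be told apart in the comparisons with them. The 8 h and 24 h groups had no untreated cells of their own, so the same holds for the change between these times. No source says that the 3 replicates of a group were separate cultures, so the p-values measure the spread between these libraries, which may be technical.

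The libraries held between 34633755 and 49342659 counts, and 16556 genes passed edgeR's expression filter. All 35 genes passed it, each with over 100 counts in every library. The mesenchymal marker VIM lay between 3240 and 4430 CPM (counts scaled to library size) in all libraries. The hormone receptor genes ESR1 and PGR had at most 9 and 0 counts, while ERBB2 lay between 51.9 and 87.1 CPM. Blood cell markers PTPRC and CD3E had at most 5 counts, fibroblast markers DCN, LUM and PDGFRA at most 13, and the endothelial markers CDH5 and VWF at most 3, although PECAM1 had 34 to 364.

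Homologous recombination repairs DNA double-strand breaks, and stalled or collapsed replication forks, by copying an intact sister chromatid. The MRN complex and its partners cut back the broken ends, the BRCA proteins prepare the exposed strand for the search for a template, and a family of paralogues and the RAD54 proteins help the strand to invade it. The Fanconi pathway repairs links between the strands of DNA: its core complex attaches ubiquitin to FANCD2 and FANCI, which brings in nucleases on the SLX4 scaffold and then recombination. Many of these genes are transcribed mainly in late G1 and S phase, and inherited loss of several of them predisposes to breast and ovarian cancer.

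Promoters of the 5 genes whose level moved by over 0.5 on the log2 scale at either time against untreated cells are shown, because these 5 genes carry the largest changes below. Each runs 5′ to 3′ on the gene's strand from 250 bases before to 50 bases after the RefSeq start (GRCh38.p14). Capitals mark matches, on either strand, to E2F-type elements (TTTCCCGC, TTTCGCGC, TTTGCCGC or TTTGGCGC), to the cell cycle homology region (TTTGAA or TTCGAA) and to CCAAT. XRCC2 lies at chr7:152676092-152676391 on the minus strand, FANCA at chr16:89816598-89816897 on the minus strand, SLX4 at chr16:3611557-3611856 on the minus strand, ATM at chr11:108222817-108223116 on the plus strand and BRCA2 at chr13:32315258-32315557 on the plus strand.
XRCC2: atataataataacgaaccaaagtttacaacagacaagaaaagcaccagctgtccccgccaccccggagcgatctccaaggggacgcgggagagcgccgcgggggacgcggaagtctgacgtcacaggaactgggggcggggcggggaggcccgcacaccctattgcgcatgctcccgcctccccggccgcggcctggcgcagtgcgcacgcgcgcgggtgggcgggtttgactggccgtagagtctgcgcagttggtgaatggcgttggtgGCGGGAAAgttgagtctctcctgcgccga
FANCA: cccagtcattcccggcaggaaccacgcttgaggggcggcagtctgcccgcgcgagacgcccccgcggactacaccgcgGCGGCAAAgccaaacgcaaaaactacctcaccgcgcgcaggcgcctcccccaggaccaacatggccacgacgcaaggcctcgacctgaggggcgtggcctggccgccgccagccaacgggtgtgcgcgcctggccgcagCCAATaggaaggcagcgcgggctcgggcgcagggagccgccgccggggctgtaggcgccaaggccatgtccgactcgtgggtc
SLX4: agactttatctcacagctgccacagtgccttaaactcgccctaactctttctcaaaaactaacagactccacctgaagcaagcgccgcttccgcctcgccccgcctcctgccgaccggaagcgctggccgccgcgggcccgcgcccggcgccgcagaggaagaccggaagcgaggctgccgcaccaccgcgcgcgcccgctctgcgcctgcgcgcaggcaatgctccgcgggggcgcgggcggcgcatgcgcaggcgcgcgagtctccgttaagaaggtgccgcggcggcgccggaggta
ATM: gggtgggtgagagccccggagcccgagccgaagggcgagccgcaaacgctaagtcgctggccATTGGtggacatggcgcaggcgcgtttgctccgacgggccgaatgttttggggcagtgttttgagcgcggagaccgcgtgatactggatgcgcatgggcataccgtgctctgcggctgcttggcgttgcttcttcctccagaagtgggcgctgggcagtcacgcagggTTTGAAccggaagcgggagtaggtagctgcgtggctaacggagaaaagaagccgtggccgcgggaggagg
BRCA2: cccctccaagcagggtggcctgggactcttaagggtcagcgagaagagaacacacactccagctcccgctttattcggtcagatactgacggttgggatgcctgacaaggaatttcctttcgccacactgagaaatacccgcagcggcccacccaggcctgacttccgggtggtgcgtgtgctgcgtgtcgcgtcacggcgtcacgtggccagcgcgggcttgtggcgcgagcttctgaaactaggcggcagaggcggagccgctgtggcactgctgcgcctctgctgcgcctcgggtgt

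XRCC2 held an E2F-type match 21 bases after its start, and FANCA held one 172 bases before its start beside a CCAAT 33 bases before it. ATM held TTTGAA 20 bases before its start and an inverted CCAAT 188 bases before it, whereas SLX4 and BRCA2 held none of these letters. RefSeq promoters were matched for 31 of the 35 genes; NBN, WRN, RAD54B and FANCI were not matched. An E2F-type match stood in 5 of the 31 (16.1%), namely EXO1, XRCC2, FANCA, FANCC and FANCD2, against 5.4% of 11042 promoters of genes tested and 3.3% of all 27305. A CCAAT stood in 12 (38.7%, against 36.5% of promoters of genes tested), and a cell cycle homology region in 3 (9.7%, against 11.1%). No motif overlapped another in the promoters shown, and a match describes letters only.

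At 8 h, 16 of the 35 genes (45.7%) were higher than in untreated cells and 4 were lower, where 25.2% of all genes tested were called higher and 24.5% lower. At 24 h, 19 (54.3%) were higher and 4 lower, against 25.7% and 26.8% of all genes tested. Calls are at a Benjamini-Hochberg adjusted p under 0.05 in edgeR's quasi-likelihood test, and both comparisons share the untreated libraries. The median log2 fold change of the 35 genes was 0.086 at 8 h and 0.14 at 24 h, beside -0.0013 and 0.0023 over all genes tested. With a log2 fold change beyond 0.5 added to the call, 3 genes were higher at 8 h (XRCC2, FANCA and SLX4) and 0 lower, beside 10.1% and 7.67% of all genes tested. At 24 h, 3 were higher (ATM, BRCA2 and XRCC2) and 0 lower, beside 10.2% and 8.46%. The libraries of the groups compared did not overlap for 23 of the 35 genes at 8 h (57.8% of all genes tested) and for 26 at 24 h (57.2%).

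Summed over the 35 genes, the level was 1259.7, 1336.4 and 1321.1 CPM in the untreated libraries, 1492.1, 1455.1 and 1474.4 CPM at 8 h, and 1492.1, 1454.7 and 1474.5 CPM at 24 h. Every TEPA library stood above every untreated library, and the sums of the 2 times were alike. Of the 35 genes, 20 (57.1%) differed between the times, near the 54.8% of all genes tested. Both times called 11 genes (31.4%) higher: ATM, ATR, MRE11, BRIP1, BRCA2, XRCC2, RAD54L, RAD54B, FANCB, FANCM and FANCI. Over all genes tested the share was 11.4%, and since both comparisons use the same untreated libraries, nothing is read from the agreement. NBN, BRCA1, RAD51C, FANCC, FANCE, FANCL and FANCD2 were called higher at 24 h and not at 8 h. BLM, XRCC3, FANCG and SLX4 were called higher at 8 h and not at 24 h. PALB2 and RAD51B were called lower at 8 h only, and RAD51D and RAD52 at 24 h only. BARD1 was lower at both times, FANCA was higher and then lower, and CHEK1 was lower and then higher. For CHEK2, RAD50, RBBP8, EXO1, WRN and FANCF neither time gave a call.

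**Figure D1:**
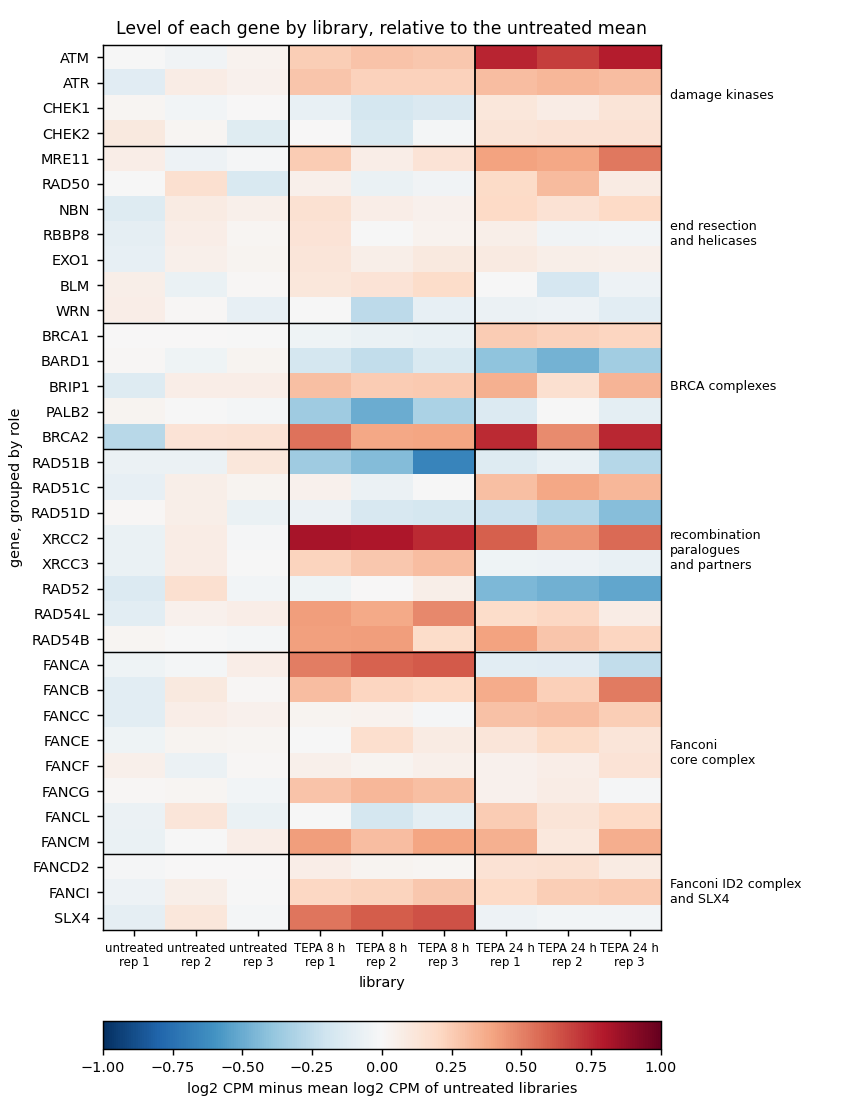
Log2 CPM of the 35 genes in each of the 9 libraries (columns), minus the mean log2 CPM of the 3 untreated libraries, with genes in rows grouped by role; red is higher and blue is lower. XRCC2, FANCA and SLX4 stand out in the 3 libraries of 8 h, ATM and BRCA2 in the 3 libraries of 24 h, and BARD1 and RAD52 are lowest at 24 h.

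Levels per transcript length differed widely among the genes. In untreated cells, mean CPM per kilobase of the canonical transcript was highest for FANCG at 25.6, RBBP8 at 21.9, NBN at 18.7, FANCI at 18.4 and EXO1 at 17.5. It was lowest for RAD50 at 1.04, WRN at 1.53 and RAD51D at 1.74. The RAD50 and RAD54B levels are uncertain, because 76.9% of the exon bases of RAD50 are shared with an overlapping gene on the same strand, and 66.0% of those of RAD54B with FSBP.

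**Figure D2:**
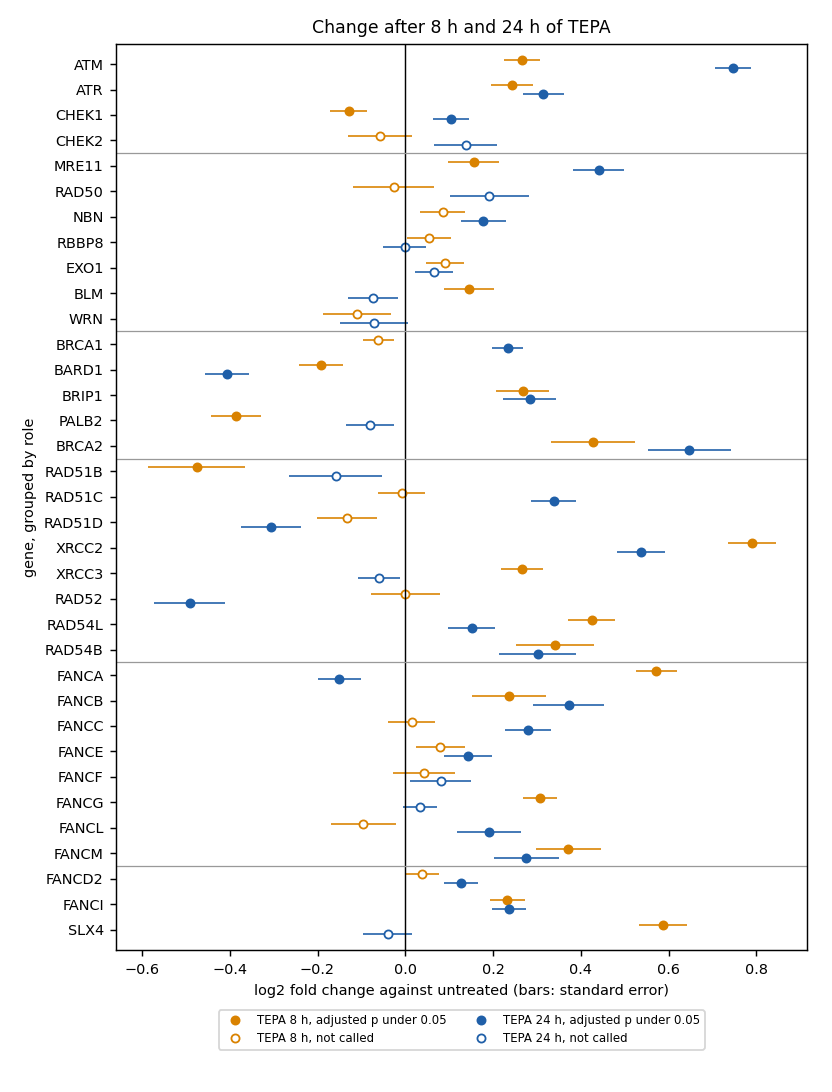
Log2 fold change against untreated cells after 8 h (orange) and 24 h (blue) of TEPA for the 35 genes, grouped by role, with the standard error as a bar; filled points passed an adjusted p of 0.05 and open points did not. Most filled points lie right of 0, and the points of one gene at the 2 times are often far apart, as for FANCA, SLX4, RAD52 and ATM.

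Among the damage kinases, ATM and ATR rose at both times. ATM, the kinase that signals double-strand breaks, lay at 52.1, 51.0 and 53.6 CPM in the untreated libraries. With TEPA, it lay at 61.8, 63.7 and 62.9 CPM at 8 h and 88.6, 84.1 and 90.0 CPM at 24 h. The 3 groups did not overlap, and the level climbed from untreated to 8 h to 24 h. ATM rose by 20.3% at 8 h (log2 fold change 0.27, SE 0.0415, adjusted p = 7.23e-05) and by 67.7% at 24 h (log2 fold change 0.75, SE 0.041, adjusted p = 8.95e-10), the largest rise among the 35 genes at 24 h. ATR, the kinase activated by single-stranded DNA at stalled forks, rose by 18.3% at 8 h (log2 fold change 0.24, SE 0.048, adjusted p = 0.000571) and by 24.4% at 24 h (log2 fold change 0.31, SE 0.047, adjusted p = 4.21e-05), and its TEPA libraries did not overlap the untreated ones. CHEK1, the kinase that ATR activates, lay at 56.0, 54.2 and 55.2 CPM in the untreated libraries. After TEPA its level was 52.5, 48.7 and 50.01 CPM at 8 h and 59.7, 58.0 and 60.2 CPM at 24 h. All 3 groups were apart, but by small steps. CHEK1 fell at 8 h (log2 fold change -0.13, SE 0.042, adjusted p = 0.0188) and rose at 24 h (log2 fold change 0.10, SE 0.042, adjusted p = 0.0457). The CHEK1 call at 8 h was lost without TEPA 8 h replicate 2 or 3 (log2 fold changes -0.11 and -0.13 in turn, adjusted p from 0.0511 to 0.0823). The CHEK1 call at 24 h was lost without untreated replicate 2 or 3 or TEPA 24 h replicate 1 or 3 (log2 fold changes 0.090, 0.10, 0.0985 and 0.095 in turn, adjusted p from 0.107 to 0.137), and with DESeq2, with no filter on low counts and with only the 2 groups fitted (adjusted p from 0.0563 to 0.14). CHEK2, the kinase downstream of ATM, gave no call at either time, at -0.058 on the log2 scale at 8 h and 0.14 at 24 h.

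In the group of end resection and helicase genes, MRE11 changed most. MRE11, the nuclease of the MRN complex, lay at 32.8, 30.2 and 31.0 CPM in the untreated libraries. After TEPA it stood at 37.4, 32.9 and 34.3 CPM at 8 h and 41.4, 41.0 and 45.2 CPM at 24 h. Each TEPA group stood above the untreated group, and 24 h above 8 h. MRE11 rose by 35.7% at 24 h (log2 fold change 0.44, SE 0.058, adjusted p = 1.09e-05), and less at 8 h (log2 fold change 0.16, SE 0.059, adjusted p = 0.038). The MRE11 call at 8 h was lost without untreated replicate 2 or 3 or TEPA 8 h replicate 1 or 3 (log2 fold changes 0.12, 0.14, 0.097 and 0.16 in turn, adjusted p from 0.074 to 0.214), and with DESeq2 and with no filter on low counts (adjusted p from 0.0532 to 0.0623). NBN, the subunit that ties the MRN complex to ATM, rose at 24 h (log2 fold change 0.18, SE 0.051, adjusted p = 0.00808) and gave 0.086 with no call at 8 h. Without untreated replicate 1, the lowest library for NBN, the log2 fold change at 24 h was 0.12. RAD50, the ATPase of the same complex, was not called, with a log2 fold change of -0.027 at 8 h and of 0.19 at 24 h. BLM, the helicase that resolves recombination intermediates, rose at 8 h (log2 fold change 0.14, SE 0.057, adjusted p = 0.0463) and gave -0.073 with no call at 24 h. The BLM call at 8 h was lost without untreated replicate 2 or 3 or TEPA 8 h replicate 1, 2 or 3 (log2 fold changes 0.10, 0.14, 0.15, 0.14 and 0.12 in turn, adjusted p from 0.0701 to 0.197), and with RLE size factors, with DESeq2 and with no filter on low counts (adjusted p from 0.054 to 0.126). RBBP8, which starts resection, EXO1, which extends it, and the helicase WRN gave no call at either time, with log2 fold changes from -0.11 to 0.091.

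The BRCA complex genes moved in opposite directions. BRCA2, which acts on the resected strand, lay at 36.5, 48.4 and 48.8 CPM in the untreated libraries. In TEPA libraries it was 64.5, 57.7 and 58.0 CPM at 8 h and 74.1, 61.2 and 74.6 CPM at 24 h. Every TEPA library was above every untreated one, although untreated replicate 1 was well below the other 2 and the libraries of the 2 times overlapped. BRCA2 rose by 34.5% at 8 h (log2 fold change 0.43, SE 0.095, adjusted p = 0.00153) and by 56.6% at 24 h (log2 fold change 0.65, SE 0.094, adjusted p = 3.06e-05). Leaving out each library in turn gave log2 fold changes from 0.30 to 0.49 at 8 h and from 0.52 to 0.73 at 24 h, each still called. BRIP1, the helicase that binds BRCA1, rose alike at both times (log2 fold change 0.27, SE 0.060, adjusted p = 0.00165 at 8 h, and log2 fold change 0.28, SE 0.060, adjusted p = 0.000894 at 24 h). BRCA1, the ubiquitin ligase that promotes resection, lay at 78.9, 79.0 and 78.7 CPM in the untreated libraries. Under TEPA it reached 76.3, 75.4 and 74.9 CPM at 8 h and 94.2, 92.4 and 91.5 CPM at 24 h. The 24 h libraries were well above the others, and the 8 h libraries just below the untreated ones. BRCA1 rose by 17.6% at 24 h (log2 fold change 0.23, SE 0.035, adjusted p = 4.39e-05) and was not called at 8 h (log2 fold change -0.062, SE 0.036, adjusted p = 0.166).

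BARD1 and PALB2, partners of BRCA1, fell, BARD1 at both times and PALB2 at 8 h only. BARD1, with which BRCA1 forms its ligase, lay at 38.5, 37.0 and 39.0 CPM in the untreated libraries. With TEPA, it lay at 33.7, 32.2 and 34.4 CPM at 8 h and 28.9, 27.5 and 30.1 CPM at 24 h. The 3 groups stepped down without overlap. BARD1 fell by 12.4% at 8 h (log2 fold change -0.19, SE 0.050, adjusted p = 0.00493) and by 24.6% at 24 h (log2 fold change -0.41, SE 0.050, adjusted p = 6.01e-06), so that at 24 h the genes of the 2 subunits of the ligase had moved in opposite directions. PALB2, the bridge between BRCA1 and BRCA2, lay at 34.9, 34.1 and 33.8 CPM in the untreated libraries. After TEPA its level was 26.8, 24.3 and 27.5 CPM at 8 h and 31.1, 34.1 and 31.9 CPM at 24 h. The 8 h libraries were below all others, and the 24 h libraries overlapped the untreated ones. PALB2 fell by 23.4% at 8 h (log2 fold change -0.39, SE 0.0565, adjusted p = 3.99e-05), and at 24 h was not called (log2 fold change -0.080, SE 0.055, adjusted p = 0.241).

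**Figure D3:**
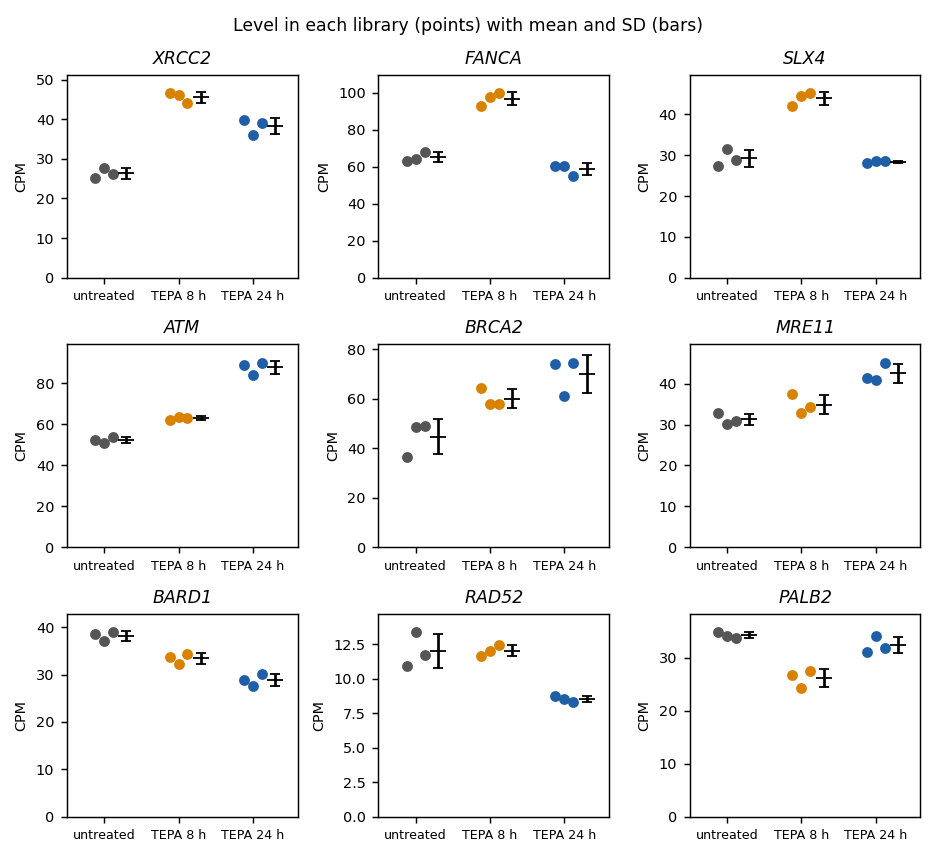
CPM of 9 genes in each library (points: grey untreated, orange TEPA 8 h, blue TEPA 24 h), with the mean and SD of the 3 libraries of each group as black bars; each vertical axis starts at 0. XRCC2, FANCA and SLX4 peak at 8 h, ATM, BRCA2 and MRE11 are highest at 24 h, BARD1 and RAD52 are lowest at 24 h, and PALB2 is lowest at 8 h.

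The recombination paralogues and their partners spanned log2 fold changes from -0.48 (RAD51B) to 0.79 (XRCC2) at 8 h. XRCC2, a subunit of a paralogue complex of recombination, lay at 25.1, 27.7 and 26.1 CPM in the untreated libraries. After TEPA it stood at 46.6, 46.0 and 43.997 CPM at 8 h and 39.8, 35.9 and 39.0 CPM at 24 h. The 3 groups did not overlap, with 8 h highest. XRCC2 rose by 72.9% at 8 h (log2 fold change 0.79, SE 0.054, adjusted p = 2.15e-08), the largest change of the 35 genes at that time, and by 45.1% at 24 h (log2 fold change 0.54, SE 0.054, adjusted p = 6.96e-07). XRCC3, which works with RAD51C, lay at 33.6, 36.9 and 34.9 CPM in the untreated libraries. In TEPA libraries it was 41.0, 42.4 and 43.5 CPM at 8 h and 34.1, 33.8 and 33.3 CPM at 24 h. Only the 8 h libraries stood apart, and XRCC3 rose at 8 h (log2 fold change 0.27, SE 0.048, adjusted p = 0.000276) and was not called at 24 h (log2 fold change -0.059, SE 0.048, adjusted p = 0.325). RAD51C, a subunit of both paralogue complexes, lay at 29.5, 32.5 and 31.9 CPM in the untreated libraries. Under TEPA it reached 32.1, 30.0 and 31.2 CPM at 8 h and 38.5, 40.9 and 39.4 CPM at 24 h. Here only the 24 h libraries were apart, with a rise of 26.4% (log2 fold change 0.34, SE 0.052, adjusted p = 4.76e-05).

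RAD51B, a paralogue that binds RAD51C, lay at 5.12, 5.12 and 5.78 CPM in the untreated libraries. After TEPA it was at 4.17, 3.95 and 3.37 CPM at 8 h and 4.86, 5.07 and 4.37 CPM at 24 h. The 8 h libraries were below the others, and the 24 h libraries just below the untreated ones. RAD51B fell by 28.1% at 8 h (log2 fold change -0.48, SE 0.11, adjusted p = 0.00217) and was not called at 24 h (log2 fold change -0.16, SE 0.11, adjusted p = 0.229). RAD51D, the partner of XRCC2 in the same complex, lay at 17.4, 18.0 and 16.5 CPM in the untreated libraries. With TEPA, it lay at 16.6, 15.4 and 15.3 CPM at 8 h and 14.8, 14.2 and 12.8 CPM at 24 h. Its 8 h libraries overlapped the untreated ones and its 24 h libraries did not. RAD51D fell by 19.1% at 24 h (log2 fold change -0.31, SE 0.069, adjusted p = 0.00152), and at 8 h gave -0.13 with no call, while the gene of its partner XRCC2 rose at both times.

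RAD52, which anneals single strands in a route less dependent on BRCA2, lay at 10.9, 13.4 and 11.8 CPM in the untreated libraries. After TEPA its level was 11.6, 12.0 and 12.5 CPM at 8 h and 8.77, 8.57 and 8.34 CPM at 24 h. The 24 h libraries were below all 6 others. RAD52 fell by 28.9% at 24 h (log2 fold change -0.49, SE 0.081, adjusted p = 0.000106), the largest fall of the 35 genes at that time, while at 8 h its log2 fold change was -0.0001 (adjusted p = 0.999). RAD54L, a motor protein that helps the strand to invade the template, lay at 42.9, 47.6 and 48.4 CPM in the untreated libraries. After TEPA it stood at 61.9, 60.0 and 64.7 CPM at 8 h and 52.4, 53.2 and 48.5 CPM at 24 h. The 8 h libraries were highest and the 24 h libraries just above the untreated ones. RAD54L rose by 34.2% at 8 h (log2 fold change 0.42, SE 0.053, adjusted p = 8.62e-06) and by 11.03% at 24 h (log2 fold change 0.15, SE 0.053, adjusted p = 0.0262). The RAD54L call at 24 h was lost without untreated replicate 1 or TEPA 24 h replicate 1 or 2 (log2 fold changes 0.099, 0.14 and 0.13 in turn, adjusted p from 0.0941 to 0.109). Its relative RAD54B rose at 8 h (log2 fold change 0.34, SE 0.089, adjusted p = 0.00457) and at 24 h (log2 fold change 0.30, SE 0.088, adjusted p = 0.00899), with the limit on its counting given above. The RAD54B call at 24 h was lost without TEPA 24 h replicate 1 (log2 fold change 0.24, adjusted p = 0.0597).

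Of the 8 Fanconi core complex genes, 4 were higher and 0 lower at 8 h, and 5 were higher and 1 lower at 24 h, where 25.2% and 24.5% of all genes tested were higher and lower at 8 h, and 25.7% and 26.8% at 24 h. FANCA, a scaffold subunit of the core complex, lay at 63.1, 64.4 and 68.0 CPM in the untreated libraries. In TEPA libraries it was 93.0, 97.9 and 99.9 CPM at 8 h and 60.6, 60.3 and 55.0 CPM at 24 h. All 3 groups were apart, with 8 h far above and 24 h just below the untreated level. FANCA rose by 48.7% at 8 h (log2 fold change 0.57, SE 0.0475, adjusted p = 1.39e-07) and fell by 9.88% at 24 h (log2 fold change -0.15, SE 0.048, adjusted p = 0.0156). The FANCA call at 24 h was lost without untreated replicate 3 or TEPA 24 h replicate 3 (log2 fold changes -0.12 and -0.11 in turn, adjusted p from 0.0764 to 0.0837). FANCG, which binds FANCA, rose at 8 h (log2 fold change 0.31, SE 0.039, adjusted p = 1.02e-05) and gave 0.034 with no call at 24 h. FANCB, a subunit next to the catalytic one, lay at 9.41, 10.8 and 10.2 CPM in the untreated libraries. Under TEPA it reached 12.5, 11.7 and 11.6 CPM at 8 h and 13.0, 11.9 and 14.5 CPM at 24 h. Both TEPA groups were above the untreated libraries and overlapped each other. FANCB rose at 8 h (log2 fold change 0.24, SE 0.083, adjusted p = 0.0274) and at 24 h (log2 fold change 0.37, SE 0.082, adjusted p = 0.00125). The FANCB call at 8 h was lost without untreated replicate 1 or 3 or TEPA 8 h replicate 1 or 2 (log2 fold changes 0.19, 0.23, 0.20 and 0.24 in turn, adjusted p from 0.0556 to 0.107).

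FANCM, the translocase that anchors the core complex on DNA, rose at 8 h (log2 fold change 0.37, SE 0.075, adjusted p = 0.000679) and at 24 h (log2 fold change 0.28, SE 0.0745, adjusted p = 0.00546). FANCL, the catalytic ubiquitin ligase of the core complex, rose at 24 h (log2 fold change 0.19, SE 0.0725, adjusted p = 0.0366) and gave -0.096 with no call at 8 h. The FANCL call at 24 h was lost without untreated replicate 1 or 3 or TEPA 24 h replicate 1 or 3 (log2 fold changes 0.16, 0.16, 0.16 and 0.19 in turn, adjusted p from 0.0702 to 0.145), and with DESeq2 and with no filter on low counts (adjusted p from 0.0585 to 0.0631). FANCC and FANCE, which together help to bind the substrate, were also called at 24 h and not at 8 h. FANCC rose by 21.4% at 24 h (log2 fold change 0.28, SE 0.053, adjusted p = 0.000337), and FANCE by 10.4% (log2 fold change 0.14, SE 0.0555, adjusted p = 0.0406). The FANCE call at 24 h was lost without untreated replicate 1, 2 or 3 or TEPA 24 h replicate 1, 2 or 3 (log2 fold changes 0.12, 0.15, 0.15, 0.16, 0.12 and 0.15 in turn, adjusted p from 0.0579 to 0.124), and with DESeq2 and with no filter on low counts (adjusted p from 0.0647 to 0.0939). FANCF, the adaptor subunit, gave no call. Its log2 fold change was 0.043 at 8 h and 0.081 at 24 h.

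Downstream of the core complex, SLX4 peaked at 8 h. SLX4, the scaffold of the nucleases that cut crosslinked DNA, lay at 27.4, 31.5 and 28.8 CPM in the untreated libraries. With TEPA, it lay at 42.1, 44.5 and 45.2 CPM at 8 h and 28.1, 28.6 and 28.6 CPM at 24 h. Its 8 h libraries were above all 6 others, and its 24 h libraries lay within the untreated range. SLX4 rose by 50.3% at 8 h (log2 fold change 0.59, SE 0.0545, adjusted p = 4.3e-07) and was not called at 24 h (log2 fold change -0.0405, SE 0.0555, adjusted p = 0.567). FANCI, 1 of the 2 substrates of the core complex, rose alike at 8 h (log2 fold change 0.23, SE 0.0395, adjusted p = 0.000159) and 24 h (log2 fold change 0.24, SE 0.039, adjusted p = 0.000113), with every TEPA library above every untreated one. FANCD2, the other substrate, rose at 24 h by 9.24% (log2 fold change 0.13, SE 0.038, adjusted p = 0.0107) and gave 0.037 with no call at 8 h. The FANCD2 call at 24 h was lost without TEPA 24 h replicate 1 (log2 fold change 0.12, adjusted p = 0.0556).

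Compared directly, 10 of the 35 genes were higher at 24 h than at 8 h of TEPA and 10 were lower, beside 26.0% and 28.8% of all genes tested. Beyond a log2 fold change of 0.5, 0 genes were higher (10.4% of all genes tested) and 2 were lower, FANCA and SLX4 (10.8%), and the libraries did not overlap for 23 of the 35 (62.0% of all genes tested). The share called was thus near that of all genes, and the median log2 fold change was 0.038, beside -0.016 over all genes tested. ATM led the genes higher at 24 h (log2 fold change 0.48, SE 0.0405, adjusted p = 9.33e-08). RAD51C followed (log2 fold change 0.35, SE 0.052, adjusted p = 3.58e-05), then RAD51B (log2 fold change 0.32, SE 0.11, adjusted p = 0.0246). PALB2 was next (log2 fold change 0.31, SE 0.0565, adjusted p = 0.000274), then BRCA1 (log2 fold change 0.30, SE 0.035, adjusted p = 3.85e-06). For RAD51B and PALB2 this was a return toward the untreated level after the fall at 8 h. The RAD51B call at 24 h against 8 h was lost without TEPA 8 h replicate 3 or TEPA 24 h replicate 1 or 2 (log2 fold changes 0.24, 0.30 and 0.27 in turn, adjusted p from 0.0725 to 0.11). CHEK1, CHEK2, MRE11, FANCC and FANCL were the other 5. The CHEK2 call at 24 h against 8 h was lost without TEPA 8 h replicate 2 or TEPA 24 h replicate 1, 2 or 3 (log2 fold changes 0.15, 0.20, 0.19 and 0.19 in turn, adjusted p from 0.0615 to 0.126).

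FANCA led the genes lower at 24 h than at 8 h (log2 fold change -0.72, SE 0.048, adjusted p = 7.1e-09). SLX4 followed (log2 fold change -0.63, SE 0.054, adjusted p = 1.22e-07), then RAD52 (log2 fold change -0.49, SE 0.082, adjusted p = 0.000102). XRCC3 was next (log2 fold change -0.33, SE 0.048, adjusted p = 3.22e-05), then RAD54L (log2 fold change -0.27, SE 0.053, adjusted p = 0.000389). FANCG, XRCC2, BLM, BARD1 and RAD51D were the other 5. The RAD51D call at 24 h against 8 h was lost without TEPA 8 h replicate 1, 2 or 3 or TEPA 24 h replicate 2 or 3 (log2 fold changes -0.13, -0.18, -0.19, -0.18 and -0.12 in turn, adjusted p from 0.0632 to 0.189), and with RLE size factors, with upper-quartile factors, with DESeq2, with no filter on low counts, with a minimum of 10 counts in every library and with only the 2 groups fitted (adjusted p from 0.0563 to 0.117). BRCA2, RAD50 and FANCD2 were higher by 0.22, 0.22 and 0.090 with no call (adjusted p = 0.0565, 0.0538 and 0.0576), and each was called under some of the other settings tried.

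The genes that were lower at 24 h than at 8 h tended to have GC-richer transcripts. The median GC content of the canonical transcript was 50.4% (37.9% to 62.8%) for the 10 lower genes, 41.8% (38.4% to 50.6%) for the 10 higher genes and 39.7% (36.2% to 58.1%) for the 15 with no call. Across the 35 genes, which share their libraries and are not independent replicates, GC content and the log2 fold change from 8 h to 24 h gave Pearson's r = -0.539 and Spearman's rho = -0.323. Over the 14580 genes tested that had a GC value, these were -0.098 and -0.147. Against untreated cells, r and rho across the 35 genes were 0.186 and -0.063 at 8 h, and -0.385 and -0.509 at 24 h. Over the 14580 genes they were 0.076 and 0.075 at 8 h, and -0.034 and -0.057 at 24 h. With an offset for GC content in the model, FANCA fell by 0.66 and SLX4 by 0.56 on the log2 scale from 8 h to 24 h, and no call of the 35 genes was lost in this comparison. The offset added calls for FANCE (log2 fold change 0.14, beside 0.063 without it) and FANCM (-0.17, beside -0.096). Over all 14 alternatives, this one included, XRCC3 ranged from -0.34 to -0.23 (main fit -0.33) and FANCG from -0.29 to -0.20 (main fit -0.27). The part of GC content in these changes was not tested further.

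**Figure D4:**
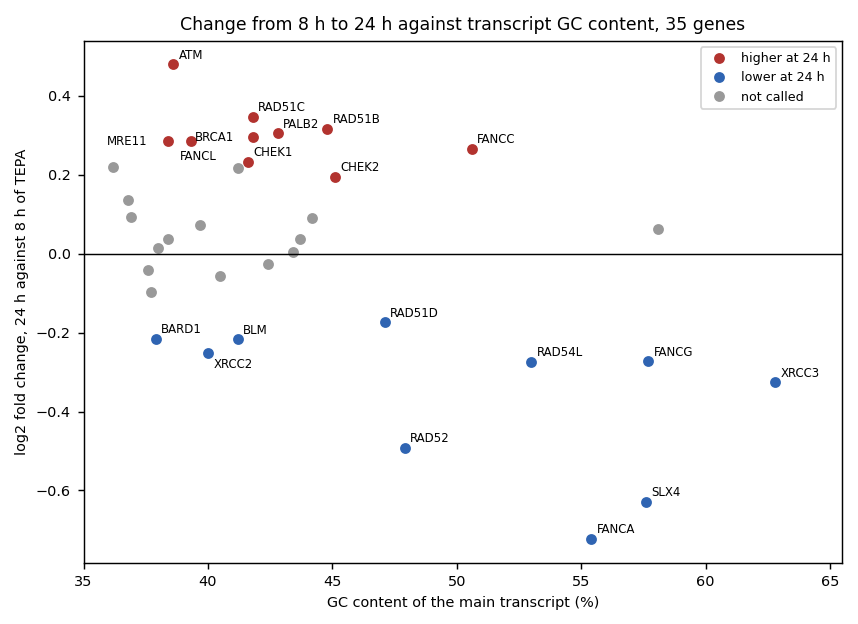
Log2 fold change from 8 h to 24 h of TEPA (vertical axis) against the GC content of the canonical transcript in percent (horizontal axis) for the 35 genes; red points were called higher at 24 h, blue points lower, and grey points were not called. FANCA, SLX4, XRCC3, FANCG and RAD54L, all over 50% GC, lie below 0, whereas ATM, MRE11 and FANCL, all under 40%, lie above it. FANCC and FANCE, over 50%, lie above 0, and BARD1, FANCM and RAD54B, under 40%, lie below it.

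Other genes of homologous recombination and the Fanconi pathway gave a more even split. Of 57 listed, 54 were tested. At 8 h 17 (31.5%) were higher and 13 (24.1%) lower, beside 25.2% and 24.5% of all genes tested. At 24 h 22 (40.7%) were higher and 16 (29.6%) lower, beside 25.7% and 26.8%. At 8 h the largest changes were a rise of RTEL1, a helicase that unwinds recombination intermediates (log2 fold change 1.11, SE 0.098, adjusted p = 2.67e-07), and of EME2, a partner of the nuclease MUS81 (log2 fold change 1.04, SE 0.070, adjusted p = 1.84e-08). RMI2, a cofactor of BLM, fell (log2 fold change -0.56, SE 0.076, adjusted p = 1.72e-05), and CENPX, which binds FANCM, rose (log2 fold change 0.46, SE 0.061, adjusted p = 1.5e-05). At 24 h the largest were falls of the nuclease FAN1 (log2 fold change -1.03, SE 0.071, adjusted p = 9.9e-09) and of ERCC1, a subunit of a nuclease held by SLX4 (log2 fold change -0.996, SE 0.046, adjusted p = 1.73e-10). POLQ, the polymerase of an alternative end joining route, fell too (log2 fold change -0.69, SE 0.077, adjusted p = 1.9e-06), as did FAAP100, a core complex subunit (log2 fold change -0.56, SE 0.0585, adjusted p = 9.96e-07). From 8 h to 24 h, EME2 (log2 fold change -1.003, SE 0.070, adjusted p = 1.19e-08) and RTEL1 (log2 fold change -0.94, SE 0.096, adjusted p = 6.52e-07) fell from a peak at 8 h, as SLX4 and FANCA did. FAN1 fell (log2 fold change -0.80, SE 0.072, adjusted p = 1.9e-07) and RMI2 rose (log2 fold change 0.76, SE 0.075, adjusted p = 4.68e-07).

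Neighbouring repair and cell cycle lists were set beside the 35 genes. Of all genes tested, 25.2% were higher and 24.5% lower at 8 h, and 25.7% and 26.8% at 24 h. Between 8 h and 24 h, 26.0% were higher and 28.8% lower at 24 h. Of 24 checkpoint and damage signalling genes, 9 were higher and 5 lower at 8 h, and 10 and 6 at 24 h. Of 10 end joining genes, 7 were higher and 0 lower at 8 h, 5 higher and 1 lower at 24 h, and 7 were lower at 24 h than at 8 h. PRKDC, the kinase of end joining, rose most of these at 8 h (log2 fold change 0.49, SE 0.057, adjusted p = 4.43e-06). Of 31 S phase genes, 7 were higher and 10 lower at 8 h, and 7 and 12 at 24 h. Their summed level was 3915.8, 4063.9 and 4058 CPM in the untreated libraries. With TEPA, it was 3892.2, 3929.2 and 3942.3 CPM at 8 h and 3876.1, 3894.6 and 3780.5 CPM at 24 h. The 24 h libraries were thus below all untreated ones, by small steps, and the 8 h libraries overlapped both groups. Of 22 G2 and mitosis genes, 13 were higher and 1 lower at 8 h, 2 were higher and 11 lower at 24 h, and 16 were lower and 0 higher at 24 h than at 8 h. Their summed level was 4484, 4864 and 4804 CPM in the untreated libraries, 5327, 5400 and 5353 CPM at 8 h and 4379, 4396 and 4387 CPM at 24 h, so the 8 h libraries were above all others. MKI67, a proliferation marker, rose at 8 h (log2 fold change 0.48, SE 0.061, adjusted p = 1.16e-05), and PLK1, a mitotic kinase, fell at 24 h (log2 fold change -0.46, SE 0.040, adjusted p = 1.46e-07). The S phase list had more lower than higher calls at both times, and the G2 and mitosis list at 24 h, whereas the 35 genes had more higher calls at both times. The part of these lists in the changes was not tested. In bulk samples, a change in the share of cells in a cell cycle phase and a change in RNA per cell cannot be told apart.

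**Figure D5:**
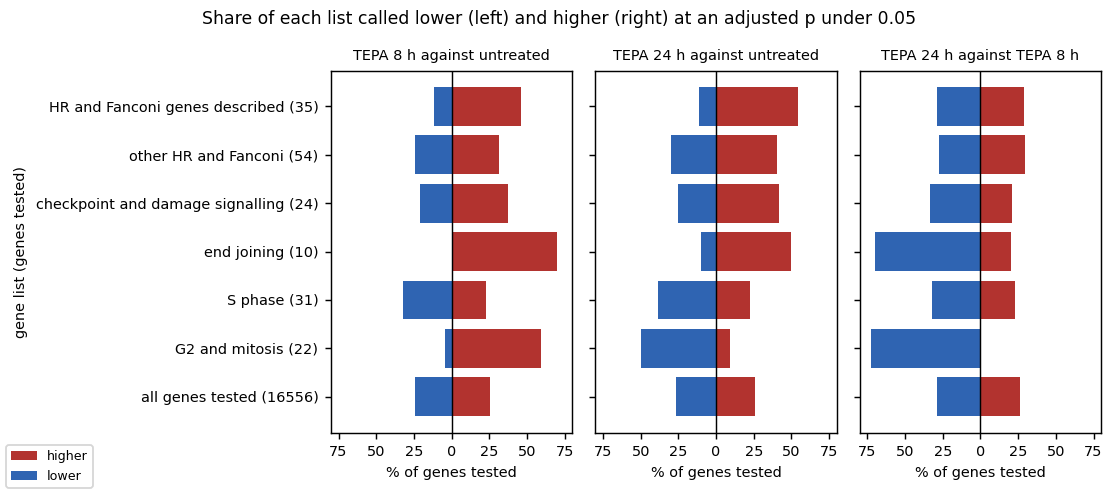
Percentage of the genes tested in each list (count in brackets) called higher (red, right) or lower (blue, left) at an adjusted p under 0.05, for the 3 comparisons. The 35 genes lean to higher calls against untreated cells at both times and split evenly between 24 h and 8 h, while the G2 and mitosis list turns from mostly higher at 8 h to mostly lower at 24 h.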

How the data were processed

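RNA from MDA-MB-231 cells was sequenced as paired, stranded mRNA libraries. Per the labels and methods, the authors inspected reads in FastQC, mapped them to hg38 by HISAT2 and assigned read pairs to exons, by gene name and strand, in featureCounts. The deposited values are raw counts per gene and library, with no normalization. Every one of the 9 count columns was used.

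Counts were tested with edgeR 4.0.16 in R 4.3.3. The filterByExpr minimum was 10 counts, libraries were scaled by TMM factors (0.978 to 1.039), and all 9 were fitted in one quasi-likelihood model. The Benjamini-Hochberg adjustment covered the 16556 genes tested. The standard error is the size of the log2 fold change over the square root of F, and CPM values are TMM-scaled. Replicates correlated at 0.993 or more in log2 CPM, and the biological coefficient of variation was 0.0481. The procedure was also run on counts simulated from its own fitted spread, with far fewer genes changed than were called here. That run cannot show how it performs on these data.

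All 35 genes are named. Up to 5 higher and 5 lower genes per comparison, those with the largest log2 fold change among called genes without overlap, are given in every library, as are further genes beside them. Up to 4 called genes with the largest change per comparison stand for the other genes of homologous recombination and the Fanconi pathway. From the neighbouring lists only PRKDC, MKI67 and PLK1 are named, and these are not always the largest changes of their list. The 35 genes and all lists were chosen with earlier results of these data known. Gene structures and GC content are from GENCODE v44 on hg38, and promoters from RefSeq. Alternatives were other size factors, DESeq2 1.42.0, other filters, a fold limit, fitting 2 groups, a replicate block, leaving out each library and, chosen after seeing the data, a GC offset. Some genes of the other lists and markers are not reported here.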

Additional observations from a re-analysis of the deposited data

Results flagged for a closer look

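For 20 of the 35 genes (57.1%) the level differed between 24 h and 8 h of TEPA, a share near that of all genes tested (54.8%). This is the test of 24 h against 8 h by edgeR's quasi-likelihood test with Benjamini-Hochberg adjustment. Both comparisons with untreated cells share the untreated libraries. The difference between the 2 times uses them only through the common estimate of the spread. With a single untreated group, a change in the effect of TEPA and time in culture cannot be told apart. Lower at 24 h on the log2 scale were FANCA (-0.72, adjusted p = 7.1e-09), SLX4 (-0.63, adjusted p = 1.22e-07), RAD52 (-0.49, adjusted p = 0.000102), XRCC3 (-0.33, adjusted p = 3.22e-05), RAD54L (-0.27, adjusted p = 0.000389), FANCG (-0.27, adjusted p = 2.35e-05), XRCC2 (-0.25, adjusted p = 0.000739), BLM (-0.22, adjusted p = 0.00426), BARD1 (-0.22, adjusted p = 0.00199) and RAD51D (-0.17, adjusted p = 0.0461). Higher at 24 h were ATM (0.48, adjusted p = 9.33e-08), RAD51C (0.35, adjusted p = 3.58e-05), RAD51B (0.32, adjusted p = 0.0246), PALB2 (0.31, adjusted p = 0.000274), BRCA1 (0.30, adjusted p = 3.85e-06), FANCL (0.29, adjusted p = 0.00357), MRE11 (0.28, adjusted p = 0.00058), FANCC (0.27, adjusted p = 0.000508), CHEK1 (0.23, adjusted p = 0.00021) and CHEK2 (0.20, adjusted p = 0.0306).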

How the results depend on the processing

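Of 105 results (35 genes in 3 comparisons), 63 were called, 49 of these kept their call and direction under all 14 alternatives run for each comparison, 14 lost the call under at least 1, and 0 reversed. Of the 42 results with no call, 12 were called and 11 changed sign under at least 1 alternative. With a fold limit of 0.5 (log2), the counts of genes higher and lower were 3 and 0 at 8 h, 3 and 0 at 24 h, and 0 and 2 for 24 h against 8 h. The median log2 fold change moved to 0.12 at 8 h and 0.017 for 24 h against 8 h with the GC offset, to 0.17 at 24 h with upper-quartile factors, and to 0.064 for 24 h against 8 h with only 2 groups fitted. Leaving out each library in turn gave 13 to 15 genes higher, 3 to 4 lower and a median of 0.058 to 0.10 at 8 h, 13 to 18 higher, 3 to 4 lower and a median of 0.12 to 0.15 at 24 h, and 8 to 11 higher, 9 to 10 lower and a median of 0.035 to 0.059 for 24 h against 8 h. Why these values moved was not tested.

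Same-numbered libraries of different groups did not deviate together (correlations from -0.08 to 0.038), and 6 of 18 best matches had the same number, so they share only a number. With the replicate block, 15 genes were higher and 4 lower at 8 h (median 0.0864), 17 and 4 at 24 h (0.1444), and 10 and 10 for 24 h against 8 h (0.0388). The block ended the calls of BLM at 8 h (0.14, adjusted p = 0.0527), CHEK1 at 24 h (0.10, adjusted p = 0.0571) and FANCL at 24 h (0.19, adjusted p = 0.0607). All genes called fell from 8216 to 7779, from 8688 to 8355 and from 9079 to 8758.

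Each of the 35 genes had over 100 counts in every library. Error from counting alone weighs most on low genes such as RAD51B. The 14 calls lost had log2 fold changes between 0.10 and 0.32 in size.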
